A study of Capra hircus with 6 samples.

Results

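The cytosolic ribosomal proteins are the protein components of the ribosomes that translate mRNA in the cytoplasm. They were taken from the gene comparison table as the loci that carry 1 gene name made of RPL or RPS with a number, or 1 of the names RPLP0, RPLP1, RPLP2 and RPSA. This rule found 76 of 26938 loci, 45 of the large and 31 of the small ribosomal subunit. Of a written list of 79 canonical ribosomal protein genes, 73 were among them. FAU, which makes a ribosomal protein fused to a ubiquitin-like protein, has a name outside the rule, and RPL17, RPL32, RPL41 and RPS25 were not analysed here. The other 3 members, RPL3L, RPL10L and RPS27L, are paralogs of canonical genes.

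Skin was taken from 6 female Chanthangi Pashmina goats, all 26 months old: 2 with a white, 2 with a brown and 2 with a black coat. All were sampled on the flank with a biopsy punch of about 7 mm under local anaesthesia, and the labels name no treatment. Each locus has 1 FPKM value (fragments per kilobase of transcript, scaled to the mapped fragments) per colour, which pools the 2 goats. Values per goat and depths were not used here, so no spread between goats is given, no test of a difference was run, and every ratio here describes pooled values. The 3 comparisons share these pools, so the third ratio of a gene follows from the other two. A member at the same height in 3 pools can still differ between goats.

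Each ribosome holds a single copy of nearly all of these proteins, and cells make them in matched amounts. Their mRNAs start with a run of pyrimidines, the 5′ terminal oligopyrimidine (TOP) motif, through which growth signals set their translation together. In mice, mutations in several of these genes darken the skin or leave white spots on the coat. In humans, mutations in several cause Diamond-Blackfan anaemia, and RPS7 and RPS19 belong to both groups. A punch of skin mixes keratinocytes, fibroblasts, pigment cells and immune cells, so fewer cells of a type and less RNA per cell cannot be told apart.

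The labelled tissue was checked by markers fixed in lists. The epidermal keratin KRT14 had 8995, 12437 and 7238 FPKM in white, brown and black skin, and all 4 epidermal and all 4 dermal fibroblast markers were in the table and above 0. Of 4 hair shaft markers, 2 were in the table. The summed levels of cell type markers differed between the pools. The 3 neutrophil markers, none at 0, summed to 46.1, 394 and 1406 FPKM in white, brown and black, and the 4 melanocyte markers, none at 0, to 5.65, 40.3 and 45.1. The 4 fibroblast markers summed to 2252, 1877 and 1443, the 4 epidermal markers to 26198, 31079 and 20161, and the 3 proliferation markers to 75.3, 123 and 86.3. Not every marker was highest in the colour of its sum. KRT10 was highest in white, with 4326, 3480 and 2602 FPKM, and so was MKI67, with 5.82, 5.71 and 4.02. The fibroblast marker DCN was highest in brown, with 869, 1038 and 806, and so were the melanocyte markers DCT and TYR. All 3 neutrophil markers were highest in black. The part of these cell types in the ribosomal protein values was not tested. A single unnamed locus, LOC106502857, held 66.1%, 37.2% and 60.3% of the summed FPKM of the white, brown and black pools.

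Ribosomal protein genes were among the most abundant transcripts of the skin in every colour. Of the 76 members, 74 had an FPKM of at least 1 in all 3 colours, 43 of the large and 31 of the small subunit. Their levels ran from 86.7 to 5591 FPKM in white (median 1660), from 109.8 to 5415 in brown (median 1713) and from 103 to 5817 in black (median 1656). At least 1000 FPKM was reached by 60 members in white, 64 in brown and 61 in black. Of the 120 loci with 1 name and a mean of at least 1000 FPKM, 63 were members.

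The members together summed to 131174, 136898 and 137701 FPKM in white, brown and black. As a share of all FPKM this was 5.99%, 11.8% and 7.96%, an order in which brown stood highest. Without LOC106502857 the shares were 17.7%, 18.9% and 20.1%, and black stood highest. The order of the shares thus depended on 1 locus outside the family. The large subunit summed to 72207, 75660 and 75033 FPKM and the small subunit to 58967, 61238 and 62668, again as white, brown and black.

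**Figure D1:**
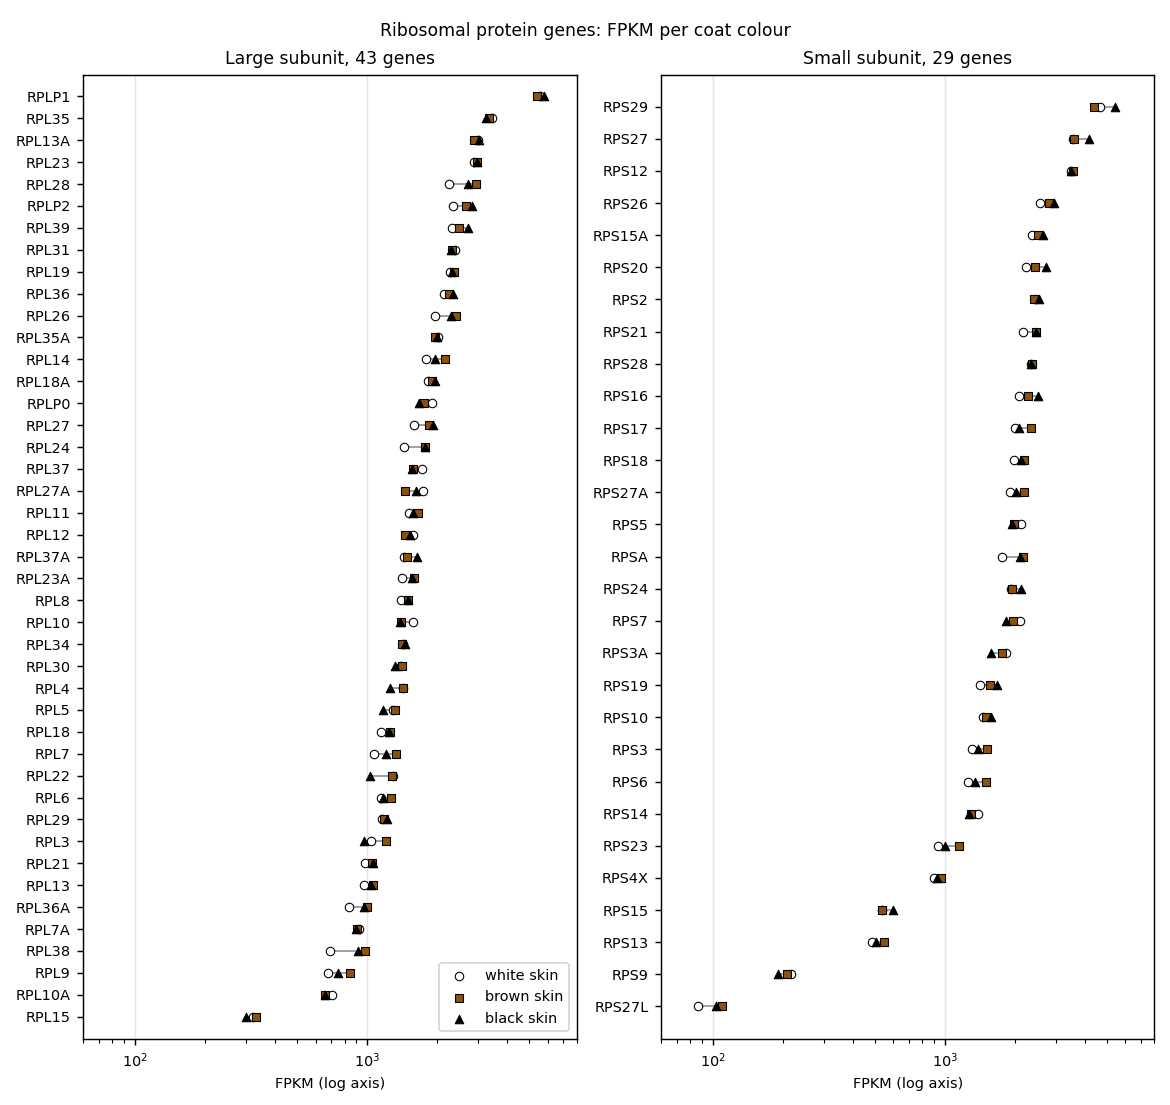
FPKM on a log axis of 43 large and 29 small subunit genes with at least 1 FPKM in every colour, 1 point per pooled colour (white circles, brown squares, black triangles), joined by a line from the lowest to the highest. The 3 points of a gene lie close together beside the distance between genes, with RPL38 the widest at 1.42-fold.

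The plot of levels by gene shows that the members differed far more from each other than between colours. RPLP1, an acidic protein of the stalk that draws elongation factors to the ribosome, was the highest at 5591, 5415 and 5817 FPKM in white, brown and black. RPS29, a small zinc-binding protein of the small subunit, followed with 4659.5, 4413 and 5403. RPS27, another zinc-binding protein, had 3574, 3589.7 and 4166. These genes have short transcripts, for which an FPKM depends most on the length correction.

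RPS12, of the small subunit, had 3499, 3572 and 3508 FPKM in white, brown and black, and RPL35, which sits at the exit of the peptide tunnel, had 3441, 3344 and 3259. Both were nearly level over the colours. At the low end RPL15 had 324, 331 and 299.5 FPKM, RPS9 had 218, 209.7 and 190.1, and RPS27L, known in human cells as a target of p53, had 86.7, 109.8 and 103. Ribosomal protein genes have many processed copies in mammalian genomes and reads that map to several places were reported at all of them, so the level of a single member is uncertain.

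The 2 members under 1 FPKM were tissue-restricted paralogs. RPL3L, a paralog of RPL3 made in heart and skeletal muscle, was listed at 0.0194, 0.0344 and 0.0760 FPKM in white, brown and black. RPL10L, a testis paralog of RPL10, was listed at 0 in white, 0.197 in brown and 0 in black. Both levels are too low to compare. Of the 17 skeletal muscle genes in the table, 5 were at or above 1 FPKM in the compared colours. The highest were DES, which smooth muscle also makes, with 112, 117 and 140 FPKM, and TPM2 with 28.3, 35.2 and 47.5. The muscle actin ACTA1 had 0.412, 0.298 and 1.22 FPKM, and the muscle creatine kinase CKM had 0.841, 0.690 and 0.675.

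Across colours the family was nearly flat in the FPKM as deposited, and this depended on the scale. With the median of all loci taken off, the median log2 ratio of the members was -0.31 in white over black. On the scale of 13 common reference genes it was -0.29 in brown over white. The folds that follow use the FPKM as deposited. The ratio of the highest to the lowest colour had a median of 1.13 over the 74 members and ran from 1.01 to 1.42. It was under 1.1 for 29 members and under 1.5 for all 74. The same ratio had a median of 1.41 over 12708 other loci with at least 1 FPKM in every colour, of which 59.6% were under 1.5. Loci with at least 100 FPKM, 581 in number, had a median of 1.31, with 71.9% under 1.5. The loci nearest in span and level also had higher ratios than the family. For each member the 50 non-member loci nearest in span and mean FPKM were taken, and these 333 distinct loci had a median of 1.35, with 64.9% under 1.5. The match was incomplete at the top, since 57 other loci reached a mean of 1000 FPKM. The 333 pooled loci had a median FPKM of 324 and a median span of 4584 bases, where the members had 1647 and 3403. Taken member by member, the median FPKM of the nearest loci was 1306 for the middle member.

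**Figure D2:**
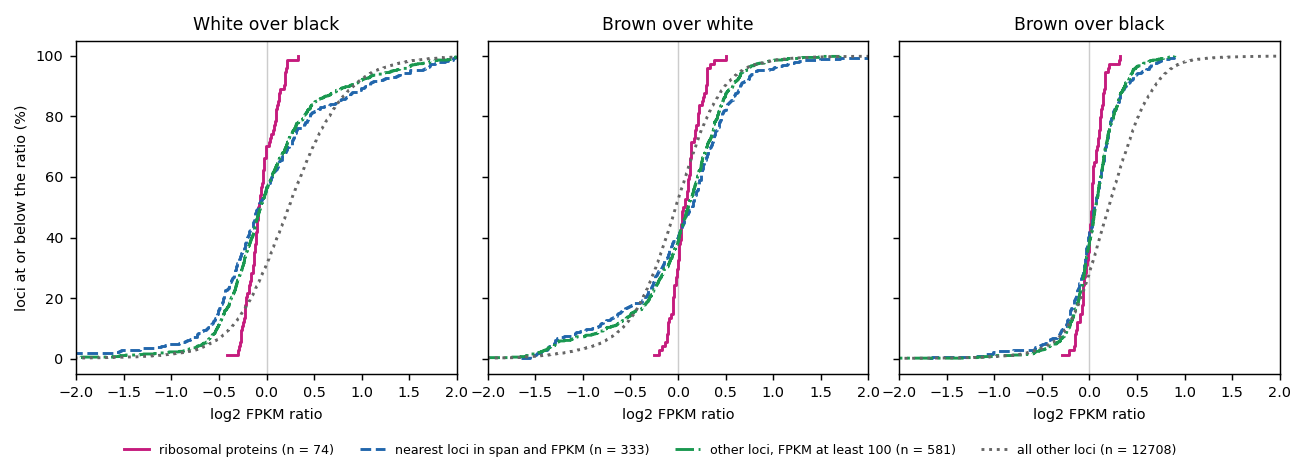
Cumulative share of loci (percent) against the log2 FPKM ratio for the 3 comparisons: the 74 ribosomal protein genes (solid), their 333 nearest loci in span and FPKM (dashed), the 581 other loci with at least 100 FPKM (dash-dotted) and all 12708 other loci with at least 1 FPKM in every colour (dotted). The ribosomal protein curve is the steepest in each panel, with an SD of 0.16, 0.15 and 0.11, and most of it lies left of all loci in both comparisons with black.

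White and black skin were compared first, and the ratios are log2 of white FPKM over black FPKM. The 74 members had a median of -0.08 and ran from -0.41 to 0.33, with 52 below and 22 above 0, but the median was 0.06 after the median of 13 common reference genes was taken off. The side of 0 on which the family lay thus depended on the scale. None of the 74 reached an absolute log2 ratio of 1, where 9.21% of all 12904 loci with at least 1 FPKM in both colours did. None reached 0.5 either, where 35.8% of all loci did. Among the 333 nearest loci, 62 were at or above 0.5 and 55 at or below -0.5.

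The median of all loci was 0.23, higher in white, and 73 of the 74 members lay below it. This was shared in part by other abundant loci, of which 72.1% of those with at least 100 FPKM and 70.0% of the nearest loci lay below it. The medians of these 2 sets were -0.06 and -0.09, close to that of the family. The ratios of the members covered a narrower range. Their SD was 0.16, where the 50 nearest loci of a member had a median SD of 0.88. The 333 nearest loci included KRTAP11-1 at 1.40 and the neutrophil marker S100A8 at -5.54. The range from the lower to the upper quartile, less open to such loci, was 0.235 for the members. It had a median of 0.877 for the 50 nearest loci. The cumulative plot of the ratios shows this as a steep curve within a much broader one. A narrow range was not particular to the family. The 35 proteasome genes had an SD of 0.18 here, 0.18 in brown over white and 0.19 in brown over black. With the median of its 50 nearest loci taken off each ratio, the members had a median of -0.03, 32 above and 42 below 0.

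RPL38 had the lowest ratio of white to black. This large subunit protein, whose loss shortens the tail and disturbs the body axis in mice, lies on chromosome 19 from 56001849 to 56006072. It had 690, 979 and 918 FPKM in white, brown and black, a log2 ratio of -0.41 white over black. Among its 50 nearest loci, 15 had a lower ratio. RPL24 followed at -0.30, RPS20 at -0.29, RPLP2 at -0.28 and RPS16, of the head of the small subunit, at -0.27. RPS16 had 2093, 2271 and 2529 FPKM in white, brown and black.

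RPL22 had the highest ratio, 0.33, and lies on chromosome 16 from 44695583 to 44702538. RPL22 binds RNA and is needed for T cell development in mice. It had 1288, 1277 and 1027 FPKM in white, brown and black, so black was the colour that stood apart. Its paralog RPL22L1, which the rule did not take, had 61.5, 50.3 and 43.9 FPKM in white, brown and black, a ratio of 0.49 in the same direction. The 3 T cell markers, none at 0, summed to 21.1, 11.98 and 15.8 FPKM, and their part in the RPL22 values was not tested.

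High ratios of white to black were also found in small subunit genes. RPS3A stood at 0.21 with 1834, 1768 and 1584 FPKM in white, brown and black. RPS7 stood at 0.21 and RPS9, at 0.20, had more of its nearest loci below it than any other member, 39 of 50. Of the 31 small subunit genes 25 were below 0 and 6 above, where on the reference genes 11 were below and 20 above. Of the 43 large subunit genes 27 were below 0 and 16 above, where on the reference genes 10 were below and 33 above. Of all loci, 31.4% were below 0. Against the median of all loci the subunits did not differ, with all 31 small and 42 of the 43 large subunit genes below it.

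Brown and white skin were compared next, as log2 of brown over white. The 74 members had a median of 0.06 and ran from -0.25 to 0.50, with 51 above and 23 below 0, but the median was -0.29 on the scale of the reference genes. With the nearest loci taken off it was 0.06 for 50 loci, 0.05 for 25 and -0.02 for 100. None reached an absolute ratio of 1, where 4.90% of all 13208 loci did. At 0.5 there was 1 member, RPL38, where 23.4% of all loci lay past that value. Among the 333 nearest loci, 59 were at or above 0.5 and 58 at or below -0.5. RPL38 at 0.50 was the member just inside, and RPL28 at 0.38 the one just outside.

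The median of all loci was -0.03. Against their own 50 nearest loci 45 members lay above and 29 below. The SD of the members was 0.15, where the median SD of 50 nearest loci was 0.66. RPL28, a large subunit protein that budding yeast lacks, had 2267, 2942 and 2717 FPKM in white, brown and black. RPL7 at 0.31 had 1074, 1327 and 1212 FPKM, and RPL9 at 0.30 had 682, 842 and 752. In all of these white was the lowest colour. RPS27L, at 0.34, had 43 of its 50 nearest loci below it, the most of any member in this comparison.

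The lowest ratio of brown to white was that of RPL27A at -0.25, from chromosome 15 between 42104752 and 42107611. RPL10 stood at -0.17. RPL10, which joins the large subunit late in its assembly, had 1577, 1401 and 1382 FPKM in white, brown and black. RPL37 at -0.13 had 1727, 1576 and 1562, and RPLP0 stood at -0.12. These members were highest in white, against the majority.

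In brown over black the pools were closest. The 74 members had a median of 0.02 and ran from -0.29 to 0.32, with 43 above and 31 below 0, and the sign turned to -0.17 after the median of all loci was taken off, to -0.13 on the reference genes and to -0.03 after the nearest loci. None reached an absolute ratio of 1, where 2.75% of all 12931 loci did, and none reached 0.5, where 24.3% did. Fewer loci of similar level passed 0.5. Of the 333 nearest loci, 19 were at or above 0.5 and 15 at or below -0.5. Of the 581 loci with at least 100 FPKM, 20 and 17 were. The SD of the members was 0.11 and the median SD of 50 nearest loci 0.41. The ranges from the lower to the upper quartile were less far apart, at 0.166 and a median of 0.349. The median of all loci was 0.20, and 71 of the 74 members lay below it, as did 75.1% of the nearest loci.

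RPL3, a protein near the peptidyl transferase centre, was the highest at 0.32, with 1037, 1204.9 and 966 FPKM in white, brown and black. RPL22 followed at 0.31. RPS23, of the decoding centre, stood at 0.21 with 936, 1152 and 997 FPKM, and 43 of its 50 nearest loci had a lower ratio. RPL4, part of which lines the peptide tunnel, stood at 0.19 with 1429.7, 1436 and 1257, and RPL5 stood at 0.17. The lowest were RPS29 at -0.29, RPS27 at -0.21, RPS20 and RPL27A at -0.16 each, and RPS15 at -0.16 with 537, 538 and 600.1 FPKM. RPS29 and RPS27 were high in black alone.

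**Figure D3:**
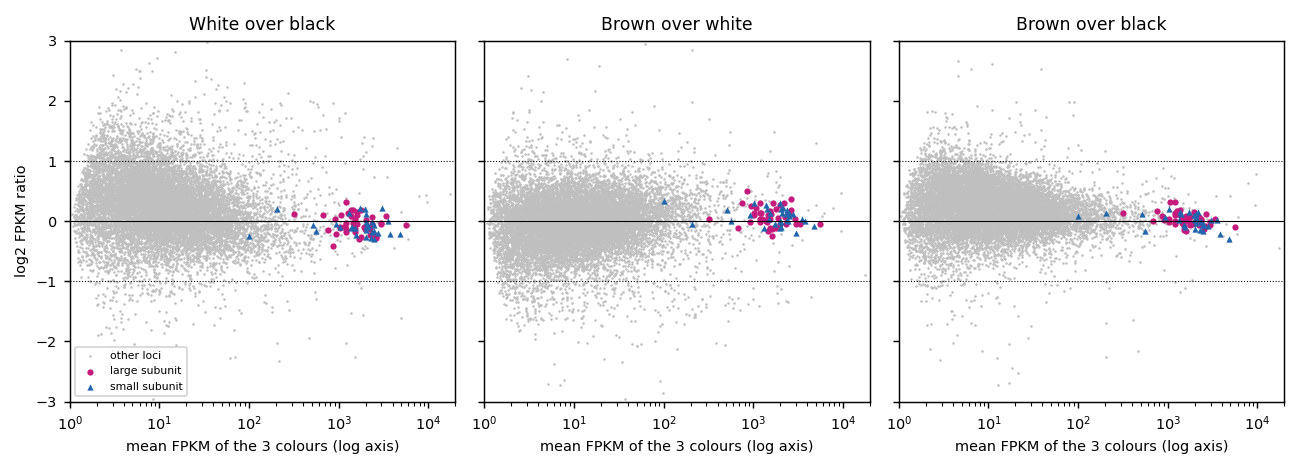
Log2 FPKM ratio of each comparison against the mean FPKM of the 3 colours (log axis), with large subunit genes as circles, small subunit genes as triangles and other loci as grey dots; dotted lines mark a log2 ratio of 1 and -1, and 19, 17 and 9 loci outside the axes are not drawn. All 74 ribosomal protein genes lie between the dotted lines, most of them above 1000 FPKM.

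Among the members, the ratio of brown to black was related to the level. Over the 74 members it had a Spearman correlation of -0.45 and a Pearson correlation of -0.41 with the log2 mean FPKM, and of 0.38 and 0.37 with the log2 span of the locus. The points share the same pooled libraries, and ratio and level are made from the same FPKM, so these are descriptions. The 11 members under 1000 FPKM had a median of 0.09, the 33 between 1000 and 2000 a median of 0.03 and the 30 above that -0.01. In white over black the Spearman correlation with level was -0.15, and in brown over white it was -0.18. The plot of ratio against level shows the members as a narrow band at its right side.

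The order of the colours within a member followed the scale. As deposited, white was the lowest colour in 46 of the 74 members, black in 18 and brown in 10, while brown was the highest in 30, black in 27 and white in 17. On the reference genes brown was the lowest in 67 members and white the highest in 51. On the median of all loci white was the lowest in 55 and black the highest in 71. The orders on these scales were counted after the values were seen. Over the other loci with at least 1 FPKM, as deposited, black was lowest in 56.5% and white highest in 46.9%. The nearest loci were lowest in white in 52.9%. As deposited, the steps between colours within a member were small, with a median of 1.13-fold in all. They cannot be set against the spread between goats.

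The members were then read by their role. Of the 3 stalk proteins, RPLP1 was nearly level, RPLP2 was lowest in white with 2337 FPKM, 2670.0 in brown and 2828 in black, and RPLP0, the anchor of the stalk, was highest in white with 1915, 1764 and 1676. Proteins of the same stalk thus had opposite signs, with -0.28 for RPLP2 and 0.19 for RPLP0 in white over black. RPL5 and RPL11 enter the ribosome with the 5S rRNA and, when free, bind MDM2 and so stabilise p53. RPL5 had 1291, 1321 and 1177 FPKM in white, brown and black, and RPL11 had 1522, 1661 and 1573. Their ratios of white to black were 0.13 and -0.05.

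The small subunit protein RPS27A is made as a fusion with ubiquitin and had 1899.55, 2196 and 2024 FPKM in white, brown and black. FAU had 2149, 1850.4 and 2074. Brown was the highest colour for RPS27A and the lowest for FAU. RPSA, once known as a laminin receptor, had 1759, 2169 and 2112 FPKM, with 12 of its 50 nearest loci below it in white over black, the fewest of any member. RPS6, the member that S6 kinase phosphorylates, had 1255, 1504 and 1353 FPKM. Its locus spans 117278 bases, the longest of the family. RPS6 and RPL5 were the 2 members over 50 kb, and 71 of 74 were under 10 kb.

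The study asked about coat colour, and 5 members change the colour of skin or coat when mutated in mice. RPS19 and RPS20 mutants have dark skin, through p53 and Kit ligand in keratinocytes. RPS19 had 1421, 1563 and 1669.7 FPKM in white, brown and black, and RPS20 had 2241, 2448 and 2739. As deposited, both were lowest in the white and highest in the black pool, with a log2 ratio of white over black of -0.23 and -0.29. This order was not particular to them, and RPS26, RPS16 and RPL27 among others had it too. White was the lowest colour in 46 of the 74 members and black the highest in 27. On the scale of the reference genes brown was the lowest in 67 members, RPS19 and RPS20 among them. RPS19 was also the member with the fewest nearest loci below it in brown over black, 7 of 50.

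RPL24 is the gene of the belly spot and tail mutant, which has white spots. It had 1449, 1783 and 1784 FPKM in white, brown and black, low in white alone. RPS7 mutants also have white spots, and RPS7 had 2114, 1959 and 1828 FPKM, the reverse order. RPL27A is the gene of the sooty foot ataxia mutant, which has dark feet, and had 1744, 1463 and 1631, lowest in brown. The 5 genes had a median of -0.23 in white over black, 0.13 in brown over white and -0.10 in brown over black, beside -0.08, 0.06 and 0.02 for the 74 members. They did not share a direction, with 3 below and 2 above 0 in white over black. All 5 lay below the median of all loci there, as did 73 of the 74 members.

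Among the 11 members listed as Diamond-Blackfan anaemia genes were RPS7 and RPS19, named above. The 11 had medians of -0.11, 0.04 and -0.02 in the same comparisons, near those of the family. They included RPS26 with 2569, 2805 and 2954 FPKM in white, brown and black, and RPL26 with 1970, 2417 and 2304. The list of p53 targets, of which 15 could be compared, had medians of 0.12, 0.01 and 0.01. The cell cycle inhibitor CDKN1A, the highest of the list, had 107, 119 and 126 FPKM and a ratio of white to black of -0.24. KITLG, the gene of Kit ligand, had 10.3, 9.99 and 4.05 FPKM, lowest in black, with a ratio of 1.34. The list thus held both signs, with 10 above and 5 below 0 in white over black. That was 66.7% above 0, near the 68.6% of all loci, whose median of 0.23 was above that of the list.

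The members were spread over the genome. Chromosome 18 held 8 of them and chromosomes 7 and 19 held 6 each, and 3 were on unplaced sequences. RPL3L lies 5451 bp from RPS2 on chromosome 25, with 1 other locus between them. Their mean levels were 0.0433 and 2472 FPKM.

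**Figure D4:**
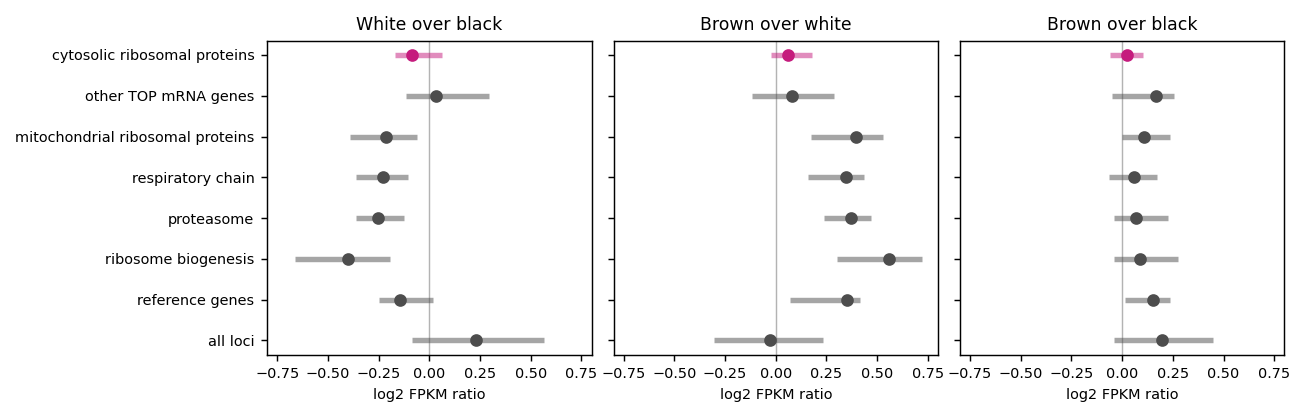
Median log2 FPKM ratio (point) and the range from the lower to the upper quartile (bar) of the cytosolic ribosomal proteins, of lists of other translation and housekeeping genes and of all loci, for the 3 comparisons. In white over black the ribosomal protein bar is the narrowest of those drawn, at 0.235 beside 0.239 for the proteasome. The median of the family in brown over white (0.06) lies left of the lists of mitochondrial and ribosome biogenesis genes (0.39 and 0.56).

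Lists of other genes for translation and basic metabolism were set beside the family. The list of other genes with TOP mRNAs, 22 loci that include FAU and 2 loci named TPT1, had medians of 0.03 in white over black, 0.08 in brown over white and 0.17 in brown over black. The loci of TPT1, the tumour protein controlled by translation, had 2000.4, 1554 and 1439 FPKM and 741, 494 and 512 FPKM in white, brown and black. The 73 mitochondrial ribosomal proteins, which translate the mRNAs of mitochondria, had medians of -0.21, 0.39 and 0.11. Of these 73, 21 reached 0.5 in brown over white, where 1 of the 74 cytosolic members did and 9.53% of all loci did.

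Of 57 respiratory chain genes, the medians were -0.23, 0.35 and 0.06, and of 35 proteasome genes -0.25, 0.37 and 0.07. As deposited, the medians of these lists lay further from 0 than those of the cytosolic ribosomal proteins, but after the median of all loci was taken off, brown over black was -0.14 and -0.13 for these lists and -0.17 for the family. The 37 genes of ribosome biogenesis, which make and process rRNA and assemble the subunits, had medians of -0.40, 0.56 and 0.09, the furthest from 0 of these lists in both comparisons with white as deposited. Among them 32 were below 0 in white over black, beside 31.4% of all loci, and 15 were at or below -0.5, beside 6.66%. Nucleolin (NCL) had 121, 202 and 152 FPKM in white, brown and black, and the rRNA methyltransferase fibrillarin (FBL) had 79.4, 117 and 124. The genes that build ribosomes and the genes of their proteins thus had different ratios in both comparisons with white. In brown over black their medians were close, at 0.09 and 0.02. The biogenesis genes were also far lower in level, with medians of 18.2, 23.3 and 23.0 FPKM in white, brown and black. No loci of similar span and level were set beside them. The 13 reference genes had medians of -0.15, 0.35 and 0.15, and GAPDH among them had 888, 1131 and 1114 FPKM. The plot of the lists shows these medians side by side.

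The loci most like the family were sought among 581 others with at least 100 FPKM, by the distance of their centred log2 levels over the 3 colours from the median member. They were TPI1, BLOC1S1, NDUFA6, ALDOA and ATP5L. TPI1, a glycolytic enzyme, had 191, 202 and 199 FPKM in white, brown and black, and ALDOA, another, had 435, 447 and 449. With 3 pooled values this likeness says no more than that their values were similar over the pools.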

How the data were processed

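RNA from the skin of 6 goats was sequenced as poly-A selected, paired-end libraries. The authors aligned the reads to a goat genome from NCBI with TopHat on a Bowtie index (Bowtie2 version 2 in the submitters' processing notes), reported all positions of reads with several matches, and assembled and measured transcripts with Cufflinks and CuffDiff. The genome build is not given in the sources used here. The deposited FPKM are the authors' own values, 1 per colour over its 2 goats, and how libraries were scaled is not stated. The table also holds the authors' fold changes, test statistics, p-values and q-values for each pair of colours, which were not used.

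Each colour's FPKM was read from the comparisons that hold it, and 0 values differed between them. Log2 ratios were taken between colours for loci with 1 gene name and at least 1 FPKM in both colours, with no pseudocount. The 50 nearest loci of a member were found by Euclidean distance in log2 span and log2 mean FPKM, and this step was checked on simulated data. That check placed shifts larger than the members' ratios at random loci with at least 1 FPKM in white and black. It does not cover the level of the members, where few other loci lie. No test was run, because values per goat were not used. A fold was counted at an absolute log2 ratio of 1, or 0.5.

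Positions are those of the table, counted from 1. Each sequence took the chromosome that most of its gene names have in a RefSeq table of the ARS1.2 assembly (lowest share 68%), in which 75 of 76 members had a symbol. That table was used for names only. Some members counted in the totals are not reported here by name.

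The members and lists were chosen with earlier results of these data known. Genes were named by role, by the 5 highest and 5 lowest ratios of each comparison, by the 5 highest and 5 lowest levels, by a level of 0, by nearness to the fold, as up to 4 of the highest genes of a list, and as the 5 loci most alike. RPS6, RPSA, RPS2, ACTA1, CKM, KITLG and the tissue markers were named in addition after their values were seen. Alternatives were other filters, a pseudocount of 1, other scales and other numbers of nearest loci. Python 3.11.15, pandas 2.3.3, numpy 2.4.6 and scipy 1.17.1 were used.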

Additional observations from a re-analysis of the deposited data

How the results depend on the processing

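One pooled FPKM per colour carries no error between goats, so no alternative here measures whether a colour differs. Of the values recomputed, 42 stayed near the reported one and 18 moved. A median counted as moved beyond 0.1 on the log2 scale, a count beyond a ratio of 1.5 and a share beyond 1.1. These limits were chosen after seeing the data. No paired analysis was possible because the values pool the goats of a colour, and for the same reason leaving out a goat was not run.

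The medians of the members moved with the scale. White over black was -0.31 after subtraction of the median of all loci, -0.42 with FPKM rescaled to the same total in every colour and 0.061 on the reference genes. Brown over white was 0.98 when rescaled to the same total and -0.29 on the reference genes. Brown over black was -0.17, 0.61 and -0.13 under these 3 scales. Rescaling to the same total follows LOC106502857. Without that locus, an alternative chosen after seeing the data, the medians were -0.20, 0.09 and -0.06, and black was the highest colour in 46 of 74 members. With FPKM above 0 in place of at least 1, the count past the fold was 1 in white over black and 1 in brown over black, RPL3L in each. With a fold of 0.5 it was 1 in brown over white, RPL38. The shares of total FPKM in white, brown and black were 19.1%, 20.6% and 21.5% without the 20 highest loci and 17.7%, 18.9% and 20.1% without LOC106502857 alone. A pseudocount and a minimum of 10 FPKM did not move a median or a count, and leaving out the paralogs, run for medians and shares, did not move those.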
